A study of Drosophila melanogaster with 5 samples.

Results

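Main segment principal cells 2 (main segment PCs 2) is a cluster that the authors annotated in single-nucleus RNA-seq of adult Drosophila Malpighian tubules, the renal organ of the fly. Its members are the nuclei that carry this name in the deposited annotation, 394 of 21371 nuclei in 5 libraries. They were set against the nuclei annotated main segment principal cells (main segment PCs) of the same library. Both clusters were drawn by the authors from the same expression values that are compared here, so every difference between them is a description and was given no test. The study asked what a gut tumor does to the renal tubule. Each library was 1 pool of 90 pairs of tubules from female flies, from which 10000 nuclei were sorted, and there was 1 library per genotype. Differences between libraries therefore had no replicate check, and all intervals below cover counting error only.

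In EGT>Yki flies, esg-GAL4 with tub-GAL80TS and UAS-GFP drove UAS-yki3SA, an active form of the growth regulator Yorkie, in intestinal progenitors. The EGT>w1118 flies carried the same driver and GFP transgenes without UAS-yki3SA. In the remaining libraries CG31272-GAL4 with tub-GAL80TS drove transgenes in principal cells themselves: an activated Pvr receptor (PCts>Pvr Activation), an RNAi construct against Pvr (the library labelled PCts>Pvr RNAi) or no UAS transgene (PCts>W1118). All crosses were kept at 18 °C and the flies were then moved to 29 °C to switch the transgenes on. The GEO labels give that period as 8 days in the treatment protocol and as 5 days in the sample characteristics. esg-GAL4 is also active in renal stem cells of the tubule, so the transgene was not limited to the gut. The EGFP feature held 0 UMIs (unique molecular identifiers, each 1 counted RNA molecule) in the 30 nuclei annotated renal stem cells of EGT>Yki and 9 UMIs in the 1592 of EGT>w1118, too few to read transgene activity from it.

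Principal cells are the large epithelial cells of the tubule. Their apical V-ATPase and basolateral transporters move cations, sugars, urate and organic solutes into the urine, while the smaller stellate cells between them carry chloride and water. The main segment is the secretory part of the tubule and is known for expression of urate oxidase (Uro). JNK signaling is a stress pathway in which the kinase Bsk acts on the AP-1 factors Kay and Jra, and the phosphatase gene puc is induced by it and dampens it.

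Main segment PCs 2 made up 8.93% of nuclei in EGT>Yki (325 of 3640, exact Clopper-Pearson 95% interval 8.02 to 9.90%) and 1.07% in EGT>w1118 (36 of 3380, 0.747 to 1.47%). In the libraries of the principal cell driver the cluster held 0 of 9367 nuclei in PCts>Pvr Activation, which allows a share of up to 0.0320% (3 counts of the total, with an exact upper bound of 0.0394%), 3 of 1969 nuclei from the library labelled PCts>Pvr RNAi (0.152%, 0.0314 to 0.445%) and 30 of 3015 in PCts>W1118 (0.995%, 0.672 to 1.42%). The target gene Pvr averaged 8.61 UMIs per 10000 in main segment PCs under the RNAi label and 9.09 in those of PCts>W1118, so a knockdown was not clearly seen there and its shares rest on the label. EGT>Yki thus supplied 82.5% of all members. PCts>Pvr Activation also had 0 nuclei in main segment PCs, so the cluster could not be described in that library. Because shares within a library sum to 100%, a larger share of 1 cell type and a smaller share of another cannot be told apart.

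**Figure D1:**
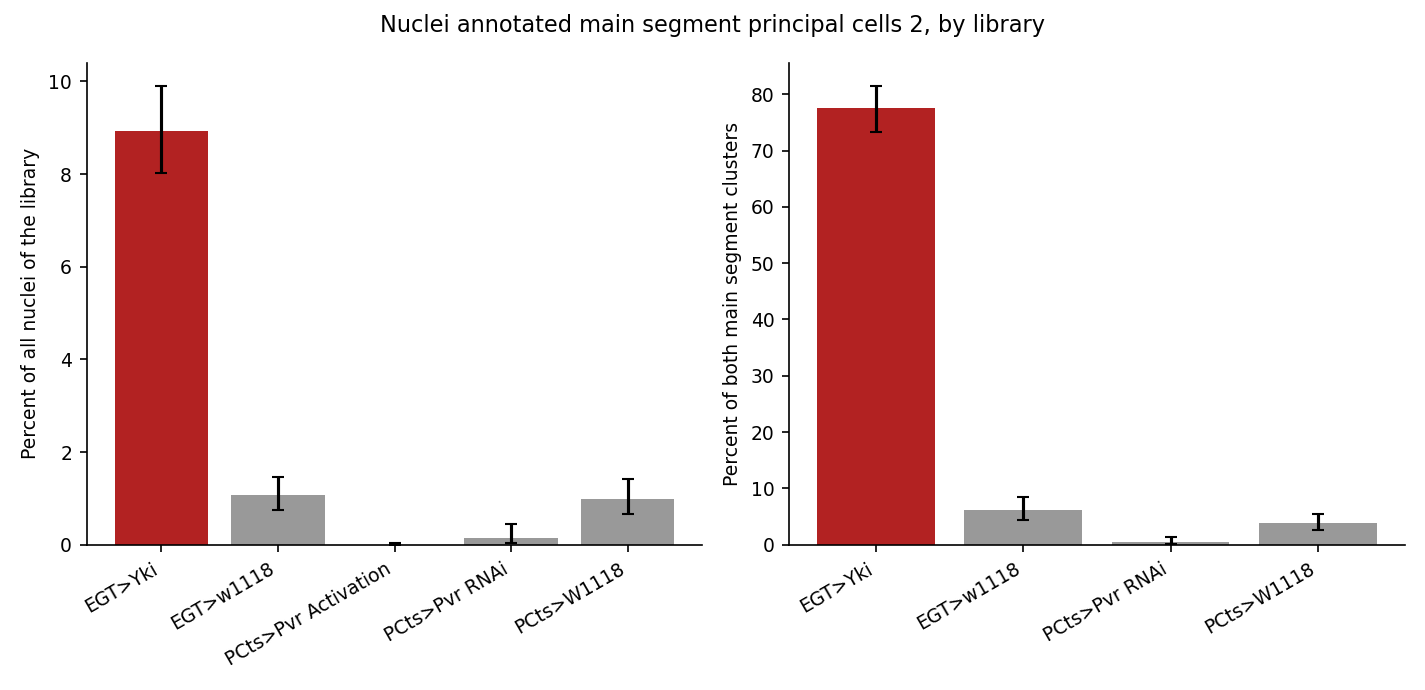
Share of nuclei annotated main segment PCs 2, as percent of all nuclei of the library and as percent of both main segment clusters together, in the 5 libraries, with exact 95% binomial intervals as bars. The cluster takes 77.6% of the main segment nuclei of EGT>Yki and at most 6.21% in the other libraries with main segment nuclei.

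Within the main segment, the cluster took 77.6% of the nuclei of both clusters in EGT>Yki (325 against 94 main segment PCs, interval 73.3 to 81.5%). The same fraction was 6.21% in EGT>w1118 (36 against 544, 4.38 to 8.49%), 0.500% for the library labelled PCts>Pvr RNAi (3 nuclei, with 597 main segment PCs, 0.103 to 1.45%) and 3.86% in PCts>W1118 (30 against 747, 2.62 to 5.47%). The 3 nuclei of the library labelled PCts>Pvr RNAi were too few for expression values and are not described further.

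The nuclei of the cluster were deeply sequenced. In EGT>Yki they held a median of 12200 UMIs (712 to 42867) and 2500 genes, against 14606 UMIs (2940 to 39957) and 2668 genes in main segment PCs, while the median over all nuclei of that library was 1888.5 UMIs. In EGT>w1118 the medians were 10903 UMIs in the cluster against 11479.5 UMIs, and in PCts>W1118 they were 10172 UMIs and 9678 UMIs. The 2 clusters of each library thus had similar median depth. The 10th percentile was 2488.6 UMIs in the cluster against 9772.4 in main segment PCs of EGT>Yki and 2772.7 against 6537 in PCts>W1118. In EGT>w1118 it was 6225.5 against 5865.7. The cluster thus had more shallow nuclei in EGT>Yki and PCts>W1118. Total counts were 14781993 to 17016181 UMIs in the 3 libraries described from here on. Of the barcodes, 53 occurred in more than 1 library, and none of those nuclei was in main segment PCs 2.

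The label was checked first on the named markers List, puc and kay. List, a transporter gene of the SLC6 family used as a main segment marker, averaged 3.27 per 10000 UMIs in main segment PCs 2 of EGT>Yki against 5.20 in main segment PCs. In EGT>w1118 it averaged 1.12 against 4.32, and in PCts>W1118 4.63 against 8.57. List was lower in main segment PCs 2 in each library. The study names Slc45-1 and CAHbeta as the top 2 marker genes of the cluster. It did so on a clustering of fewer nuclei, from EGT>w1118 and EGT>Yki only. The nuclei they were ranked against are not stated. Against main segment PCs of the annotation used here, Slc45-1 was lower in the cluster in each library. CAHbeta was lower by at least 1 on the log2 scale in EGT>Yki. These values are set against main segment PCs alone and do not check that ranking. puc averaged 17.4 against 19.5 UMIs per 10000 in EGT>Yki, 34.3 against 10.1 in EGT>w1118 and 19.8 against 13.7 in PCts>W1118. kay averaged 9.16 against 6.35, 21.6 against 4.49 and 7.46 against 3.63 in the same order of libraries. Both JNK pathway genes were higher in the cluster in the 2 control libraries, and in EGT>Yki only kay had the higher mean, by a log2 fold change of 0.47, while that of puc was -0.16. Fold changes here are log2 ratios of mean UMIs per 10000 with a pseudocount of 1 added to each mean, which understates the change of low genes.

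A further check used 10 genes that set main segment PCs of EGT>w1118 apart from initial and transitional, lower tubule, upper ureter and lower ureter principal cells. The cluster was left out of that choice. Principal cell types that the authors labelled Pvr-act and principal cells-like nuclei were not read for these genes. These were kumpel, CG7882, SKIP, CG2187, Hsp27, Hsp26, CG34426, Eglp4, Uro and CG15155. Their summed level was 116 per 10000 UMIs in main segment PCs 2 of EGT>Yki, against 223 in main segment PCs and 12.9 to 28.5 in the other principal cell types of that library. It was 169 against 325 in EGT>w1118 and 226 against 244 in PCts>W1118. The cluster of EGT>Yki therefore held these genes above those other types, and in both EGT libraries its level was lower than that of main segment PCs. The genes were chosen for being highest in main segment PCs of EGT>w1118. The lower level of the cluster in that library is thus fixed in part by their choice. Genes chosen in the same way for lower tubule PCs summed to 38.1 in the cluster of EGT>Yki, against 29.7 in main segment PCs and 43.4 in lower tubule PCs. CG7720 alone gave 27.3, 19.9 and 6.97 of these sums, so both main segment clusters rested mostly on this gene. Their sum was 11.1 against 11.8 in EGT>w1118, with 76.6 in lower tubule PCs, and 40.9 against 17.4 in PCts>W1118, with 73.8 in lower tubule PCs.

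The whole profile gave the same neighbor. Across 7020 genes in EGT>Yki, mean log values of the cluster correlated with main segment PCs at a Pearson r of 0.965. With lower tubule PCs r was 0.955, with initial and transitional principal cells 0.945 and with upper ureter principal cells 0.891. With the lower tubule and lower segment principal cells labelled Pvr-act it was 0.917 and 0.894, and with stellate cells 0.845. In EGT>w1118 r to main segment PCs was 0.871 over 6129 genes, close to 0.861 for initial and transitional principal cells and 0.851 for lower tubule PCs. In PCts>W1118 r to main segment PCs was 0.979 over 5966 genes, with lower tubule PCs at 0.930. These are correlations across genes, which are not independent replicates, and they share the library. Nucleus by nucleus, 284 of the 325 nuclei of EGT>Yki (87.4%) correlated best with the mean of their own cluster, 30 with upper ureter principal cells and 6 with main segment PCs. The 30 nuclei nearest to the upper ureter had a median of 2182 UMIs, against 12796.5 UMIs in the 284. In EGT>w1118, 32 of 36 nuclei were nearest to their own cluster, and in PCts>W1118 17 of 30 were, with 11 nearest to main segment PCs. Of the nuclei annotated main segment PCs, 2 of 94 in EGT>Yki, 5 of 544 in EGT>w1118 and 42 of 747 in PCts>W1118 were nearest to main segment PCs 2.

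Within EGT>Yki, 42 of 5618 genes compared were higher in main segment PCs 2 than in main segment PCs by a log2 fold change of at least 1 (0.748%) and 50 were lower (0.89%). Genes entered this count when at least 10% of the nuclei in one of the clusters had a UMI. In EGT>w1118 200 of 5565 genes were higher (3.59%) and 176 were lower (3.16%), and in PCts>W1118 21 of 5231 genes were higher (0.401%) and 7 were lower (0.134%). The pair of clusters thus lay farthest apart in EGT>w1118, where the cluster rests on 36 nuclei. The median over all genes was 0.04, -0.04 and 0.00 in the order given.

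Of 4765 genes measured in all 3 libraries, 6 were higher in the cluster by at least 1 on the log2 scale in each of them. Mical (FBgn0053208), which encodes an enzyme that disassembles actin filaments by oxidation, averaged 4.86 per 10000 UMIs in main segment PCs 2 against 1.08 in main segment PCs of EGT>Yki. It averaged 5.06 against 0.693 in EGT>w1118 and 2.30 against 0.540 in PCts>W1118. Prosap (FBgn0040752), the fly Shank scaffold protein, averaged 5.06 against 0.555, 2.80 against 0.423 and 1.67 against 0.274 in the same order of libraries. For both genes the cluster was higher by a similar size in the tumor library and in the 2 controls, with log2 fold changes of 1.49, 1.84 and 1.10 for Mical and 1.96, 1.42 and 1.07 for Prosap. From 2110 Mical UMIs in the cluster and 179 in main segment PCs of EGT>Yki, the log2 ratio of pooled counts, with no pseudocount, had a 95% counting interval of 1.92 to 2.37. For Prosap, with 2113 and 81 UMIs, it was 2.97 to 3.63.

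The other genes of this set differed more between libraries. SecCl (FBgn0036727), a chloride channel of stellate cells, averaged 5.35 per 10000 UMIs in main segment PCs 2 and 1.45 in main segment PCs of EGT>Yki. Its means were 32.4 against 1.83 in EGT>w1118 and 7.60 against 0.928 in PCts>W1118. mtgo (FBgn0259735), a fibronectin type III domain protein gene, averaged 13.7 against 4.80 in EGT>Yki, 84.1 against 3.38 in EGT>w1118 and 16.5 against 4.76 in PCts>W1118. The cluster's levels of SecCl and mtgo were thus close to each other in EGT>Yki and PCts>W1118 and were highest in EGT>w1118. The uncharacterized genes CG14245 (FBgn0039452) and CG5399 (FBgn0038353) completed the set. CG14245 averaged 24.4 against 4.56 UMIs per 10000 in EGT>Yki, 11.6 against 1.27 in EGT>w1118 and 6.87 against 1.79 in PCts>W1118. CG5399 averaged 26.2 against 6.90, 55.6 against 2.71 and 18.9 against 4.19. The counting interval of the pooled log2 ratio of SecCl was 1.51 to 1.90 in EGT>Yki, 3.81 to 4.04 in EGT>w1118 and 2.38 to 2.88 in PCts>W1118, and that of mtgo was 1.36 to 1.57, 4.24 to 4.39 and 1.44 to 1.74. The larger difference in EGT>w1118 thus exceeded counting error for both genes.

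A set of 5 genes was lower in the cluster by at least 1 in all 3 libraries. UGP (FBgn0035978), the UDP-glucose pyrophosphorylase that makes the sugar donor for glycogen and trehalose, averaged 1.38 per 10000 UMIs in main segment PCs 2 against 5.67 in main segment PCs of EGT>Yki. It averaged 0.590 against 9.44 in EGT>w1118 and 2.07 against 7.98 in PCts>W1118. Naprt (FBgn0031589), a nicotinate phosphoribosyltransferase of NAD synthesis, averaged 3.12 against 10.1, 1.03 against 11.8 and 4.97 against 11.5. Both metabolic genes had log2 fold changes between -1.06 and -2.72. SKIP (FBgn0051163), named for its binding to a potassium channel, averaged 0.912 against 7.52, 1.76 against 12.2 and 5.56 against 14. CG8745 (FBgn0036381) averaged 4.35 against 16.4, 2.19 against 26.3 and 10.6 against 24.4, and CG7084 (FBgn0038938) 8.49 against 27.1, 1.15 against 19.8 and 16.4 against 42.2. SKIP was also among the 10 segment genes used above. The pooled log2 ratio of UGP had a counting interval of -2.07 to -1.76 in EGT>Yki, -4.67 to -3.50 in EGT>w1118, where the cluster held 26 UGP UMIs, and -1.98 to -1.29 in PCts>W1118.

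**Figure D2:**
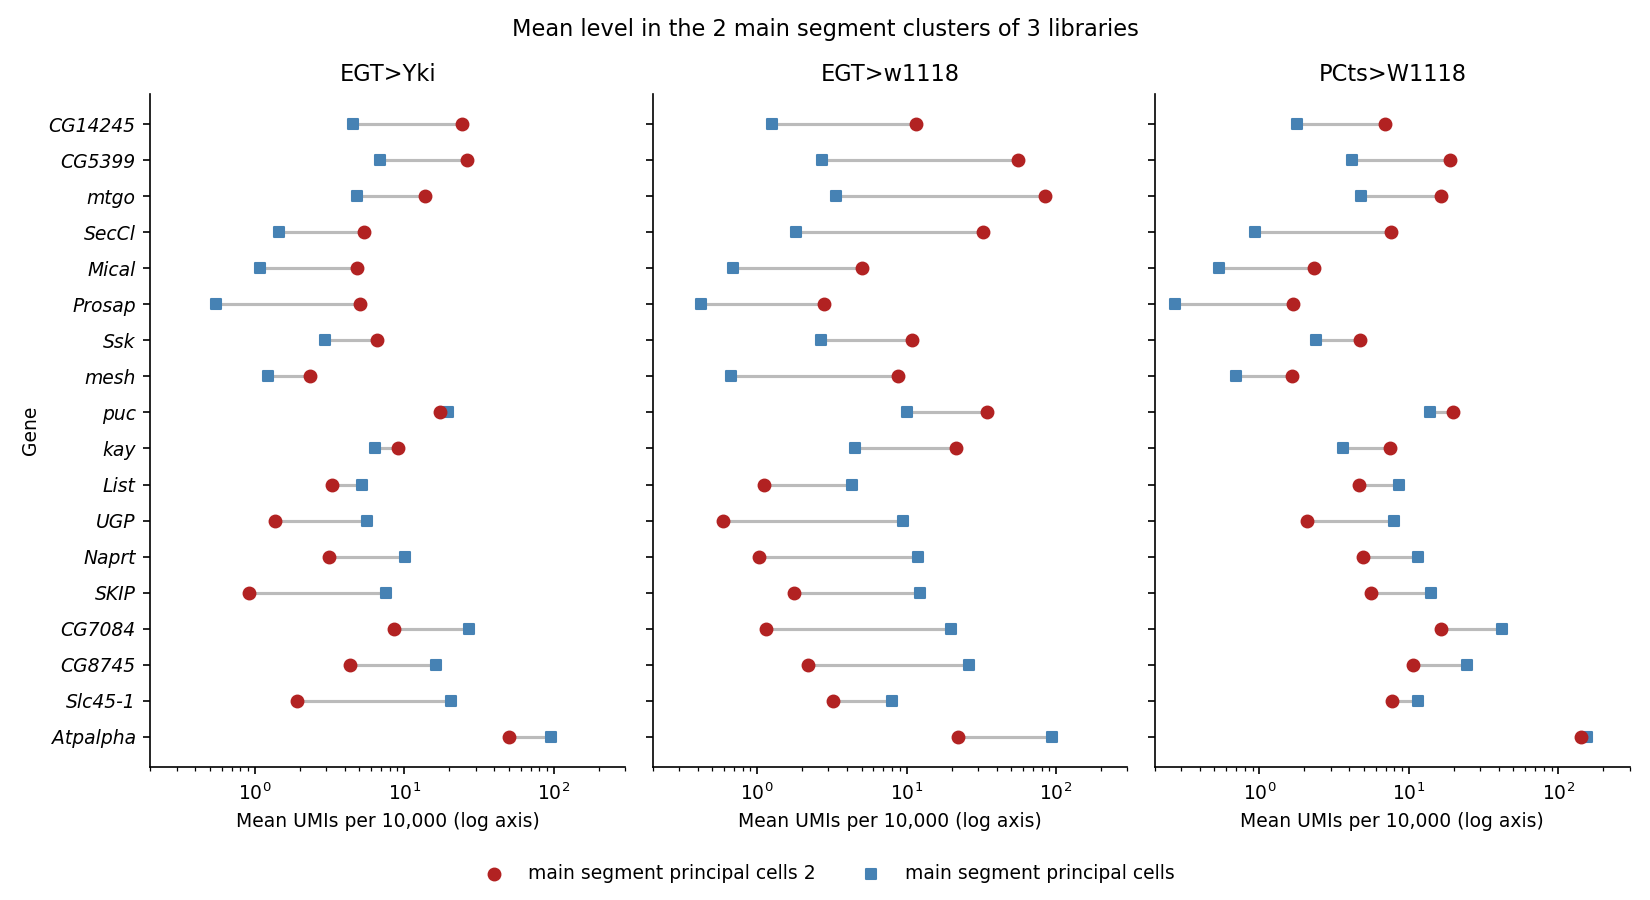
Mean level in UMIs per 10000 on a log axis for genes named in the text, in main segment PCs 2 beside main segment PCs, with a panel each for EGT>Yki, EGT>w1118 and PCts>W1118. Mical, Prosap, CG14245, CG5399, SecCl and mtgo lie higher in main segment PCs 2 in every panel, and CG7084, SKIP, CG8745, UGP and Naprt lie lower.

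With the threshold at 0.5 on the log2 scale, 35 genes were higher and 47 were lower in all 3 libraries. The higher ones included the smooth septate junction genes Ssk, mesh and Tsp2A, whose products form the barrier between tubule cells, with log2 fold changes of 0.93, 0.57 and 0.62 in EGT>Yki. These 3 and the other genes of the 35 that are named in this paragraph were picked after their values were seen. In the whole junction list 8 of 14 genes lay above 0 in EGT>Yki, with a median of 0.06 against 0.04 over all genes, and none passed 1. In EGT>w1118 3 of 13 were higher by at least 1, against 3.59% of all genes, and in PCts>W1118 1 of 13, against 0.401%. Ssk averaged 6.55 per 10000 UMIs in main segment PCs 2 against 2.97 in main segment PCs of EGT>Yki, 10.9 against 2.67 in EGT>w1118 and 4.73 against 2.40 in PCts>W1118. msn, a kinase that acts upstream of JNK, averaged 11 against 4.55, 30.4 against 2.95 and 6.18 against 3.46. mew, an integrin alpha subunit, averaged 35.2 against 18.5, 44.7 against 13.6 and 11.7 against 7.66. The matrix gene trol (perlecan) averaged 5.06 against 1.42, 13.4 against 1.61 and 4.70 against 2.12. The Notch co-activator gene mam, the secreted Wingless-binding protein gene Swim and the chitinase-like gene Idgf3 were also in this group. Swim had its largest log2 fold change in EGT>Yki (2.13, with 7.29 against 0.897 UMIs per 10000), and mam had 1.43 there.

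The genes lower by 0.5 in all 3 libraries included several transporters. Slc45-1 (FBgn0035968), a sugar transporter, averaged 1.91 per 10000 UMIs in main segment PCs 2 of EGT>Yki against 20.7 in main segment PCs, 3.22 against 8.05 in EGT>w1118 and 7.68 against 11.5 in PCts>W1118. Tret1-1, the trehalose transporter, averaged 18.6 against 39.2, 17.3 against 51.7 and 25.1 against 40.0. The vitamin transporter gene Smvt, the organic anion transporter genes Oatp58Db and Oatp74D and the water and solute channel gene Eglp4 were in this group as well. No test of enrichment was run, and these names were picked from the 47 after their values were seen.

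In EGT>Yki the lower genes were led by Slc45-1 at a log2 fold change of -2.90. SKIP (-2.16) and Hsc70-3 (-2.14), the endoplasmic reticulum chaperone BiP, were next. Hsc70-3 averaged 4.48 per 10000 UMIs in main segment PCs 2 against 23.1 in main segment PCs of EGT>Yki. In the control libraries it ran the other way, with 25.0 against 9.92 in EGT>w1118 and 9.79 against 5.59 in PCts>W1118. In stellate cells, renal stem cells, initial and transitional principal cells, lower tubule PCs and upper ureter principal cells of EGT>Yki Hsc70-3 averaged 4.01 to 7.98. The level of the cluster lay within that range and that of main segment PCs above it. Taldo, a transaldolase of the pentose phosphate pathway, averaged 1.74 against 8.14 UMIs per 10000 in EGT>Yki, and PCB, pyruvate carboxylase, 1.29 against 6.12. Their log2 fold changes were -1.74 and -1.64 in EGT>Yki, -0.95 and -1.12 in EGT>w1118 and -0.37 and -0.28 in PCts>W1118.

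The higher genes of EGT>Yki were led by CG14245 (2.19), Swim (2.13) and Prosap (1.96). Ndae1, a sodium-driven anion exchanger, averaged 20.1 per 10000 UMIs in main segment PCs 2 against 7.69 in main segment PCs of EGT>Yki. It averaged 3.67 against 2.70 in EGT>w1118 and 3.02 against 2.90 in PCts>W1118, so the log2 fold change was 1.28 in the tumor library and at most 0.34 in the controls. The counting interval of the pooled log2 ratio of Ndae1 was 1.30 to 1.48 in EGT>Yki, 0.16 to 0.64 in EGT>w1118 and -0.17 to 0.46 in PCts>W1118. No replicate tells whether this difference belongs to the genotype or to the library.

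The fixed gene lists gave a mixed picture in EGT>Yki, where 62.3% of all genes compared lay above 0 and 37.7% below it. In EGT>w1118 41.8% lay above and 58.2% below 0, and in PCts>W1118 51% and 49%. Of 82 ribosomal protein genes 81 lay above 0, with a median log2 fold change of 0.26, and none passed 1. In EGT>w1118 42 of 81 lay above 0, and in PCts>W1118 45 of 81. All 14 heat shock and stress genes lay below 0 in EGT>Yki, with a median of -0.46. Of them 3 were lower by at least 1, against 0.89% of all genes compared. Hsp27, a small heat shock protein, averaged 3.52 per 10000 UMIs in main segment PCs 2 against 11.3 in main segment PCs, and Hsp26 averaged 1.95 against 5.59. The cochaperone gene DnaJ-1 averaged 2.42 against 6.18, and the chaperone Hsp83 22.7 against 38.7. In EGT>w1118 4 of 12 genes of this list lay above 0 and 8 below, and stv, a cochaperone gene, was higher by at least 1 (1.33). In PCts>W1118 4 of 8 lay above 0. The summed level of the list was 102 against 165 UMIs per 10000 in EGT>Yki, 168 against 156 in EGT>w1118 and 134 against 128 in PCts>W1118, so it was lower in the cluster in EGT>Yki and higher in both controls. The difference between libraries was not tested.

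Of 17 V-ATPase subunit genes 13 lay above 0 in EGT>Yki, with a median of 0.13 against 0.04 over all genes, and none passed 1 in either direction. Of 21 genes of the Pvr and Ras-MAPK pathway 16 lay above 0 and none passed 1. In the list of actin, integrin and matrix genes 10 of 12 lay above 0, and the integrin alpha subunit gene if was the 1 gene lower by at least 1, with 1.36 per 10000 UMIs in main segment PCs 2 against 4.95 in main segment PCs. The main segment function list was named by the study on these samples and is no independent evidence of a direction. In it 4 of 25 genes were lower by at least 1 in EGT>Yki, against 0.89% of all genes compared. They were Slc45-1, the carbonic anhydrase gene CAHbeta, Uro and Eglp4. Uro averaged 4.19 against 9.90 UMIs per 10000 in EGT>Yki, 22.3 against 16.5 in EGT>w1118 and 11.7 against 12.3 in PCts>W1118.

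No gene of the cell cycle (7 measured), immune (4), JAK-STAT (5), Hippo and Yki target (9) or cell death (5) lists differed by at least 1 in EGT>Yki. In the JNK and AP-1 list 11 of 15 genes lay above 0 with a median of 0.08, and none passed 1.

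Over all genes compared, 3.59% were higher by at least 1 in EGT>w1118 and 0.748% in EGT>Yki. In the JNK and AP-1 list 6 of 15 genes were higher by at least 1 in EGT>w1118. Besides puc and kay these were Mmp1, a matrix metalloproteinase, at 22.3 per 10000 UMIs in main segment PCs 2 against 6.63 in main segment PCs, the transcription factor genes Ets21C at 2.56 against 0.0261 and Atf3 at 7.52 against 2.51, and the filamin gene cher at 8.38 against 0.617. Summed over the list, the median nucleus held 46.8 against 40.9 UMIs per 10000 in EGT>Yki, 79.9 against 29.9 in EGT>w1118 and 50.6 against 32.5 in PCts>W1118. The small control cluster thus carried the highest JNK list level of the 3. In PCts>W1118 no gene of the list passed 1, 10 lay above 0 and the median was 0.34.

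**Figure D3:**
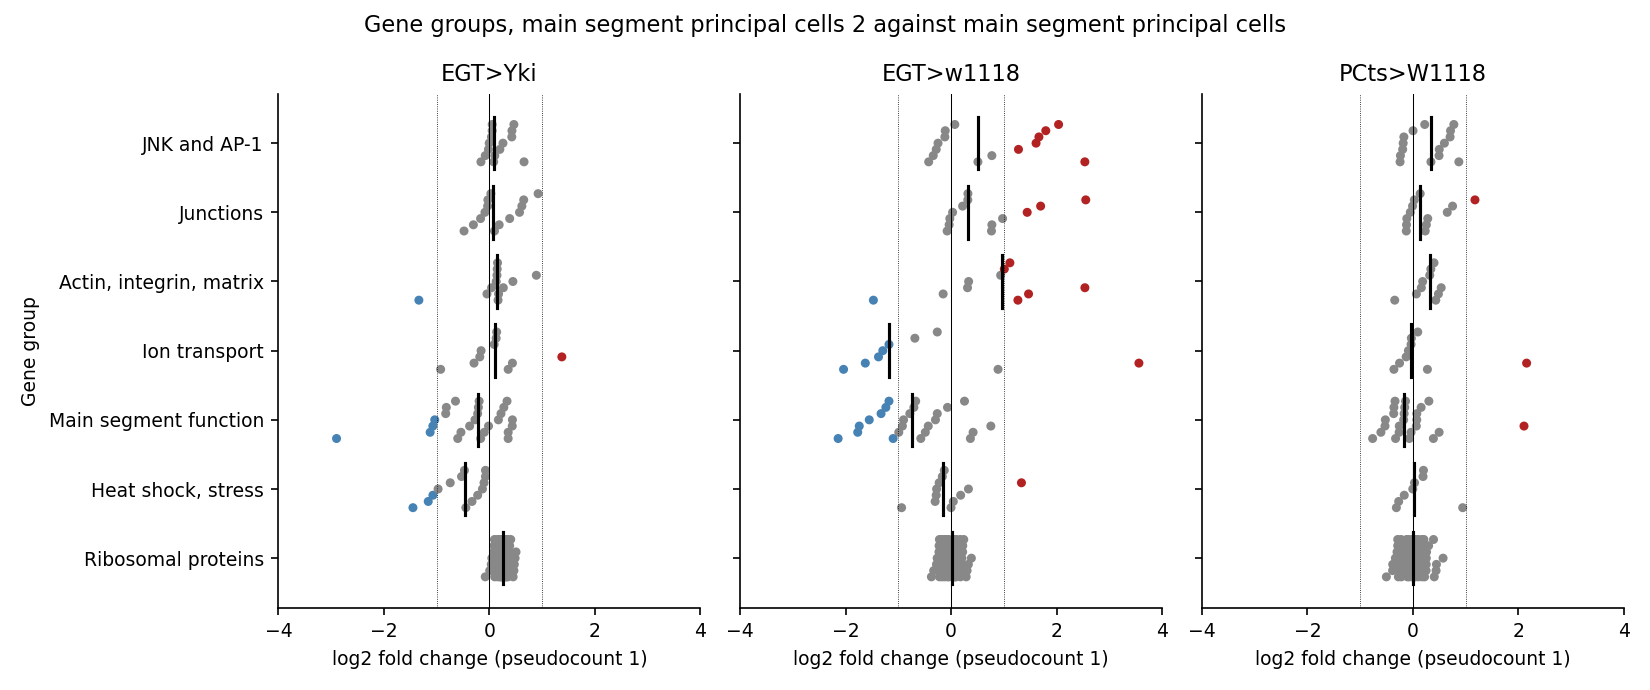
log2 fold change (pseudocount 1) of every measured member of the fixed gene lists, main segment PCs 2 against main segment PCs, in EGT>Yki, EGT>w1118 and PCts>W1118. Points are genes, dotted lines mark -1 and 1, and the heat shock and stress genes of EGT>Yki all lie below 0.

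The control cluster of EGT>w1118 also held high levels of cytoskeletal and adhesion genes. In the actin, integrin and matrix list 5 of 10 genes were higher by at least 1 and 1 was lower. Over all genes compared in that library, 3.59% were higher and 3.16% were lower. The integrin beta subunit gene mys averaged 19.3 per 10000 UMIs in main segment PCs 2 against 2.49 in main segment PCs, and the epidermal growth factor receptor ligand gene vn 17.2 against 2.85. The annexin gene AnxB9 averaged 28.9 against 3.49, and Cam, calmodulin, 26 against 3.34. hid, which promotes cell death, averaged 3.14 against 0.152. In the ion transport list 5 of 9 genes were lower by at least 1 in EGT>w1118 and 1, SecCl, was higher. None of 16 V-ATPase genes passed 1. The lower ion transport genes included the sodium pump genes Atpalpha, at 22.2 against 94.3 UMIs per 10000, and nrv1, at 2.82 against 8.38. The inward rectifier potassium channel genes Irk1 and Irk3 averaged 11.4 against 27.1 and 1.65 against 7.19. The receptor genes for diuretic hormones Dh31-R and Dh44-R2 averaged 9.48 against 23.4 and 0.696 against 3.72. In EGT>Yki the log2 fold change of Atpalpha was -0.92, with 50.1 against 95.8, and in PCts>W1118 it was -0.13, with 141 against 154.

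**Figure D4:**
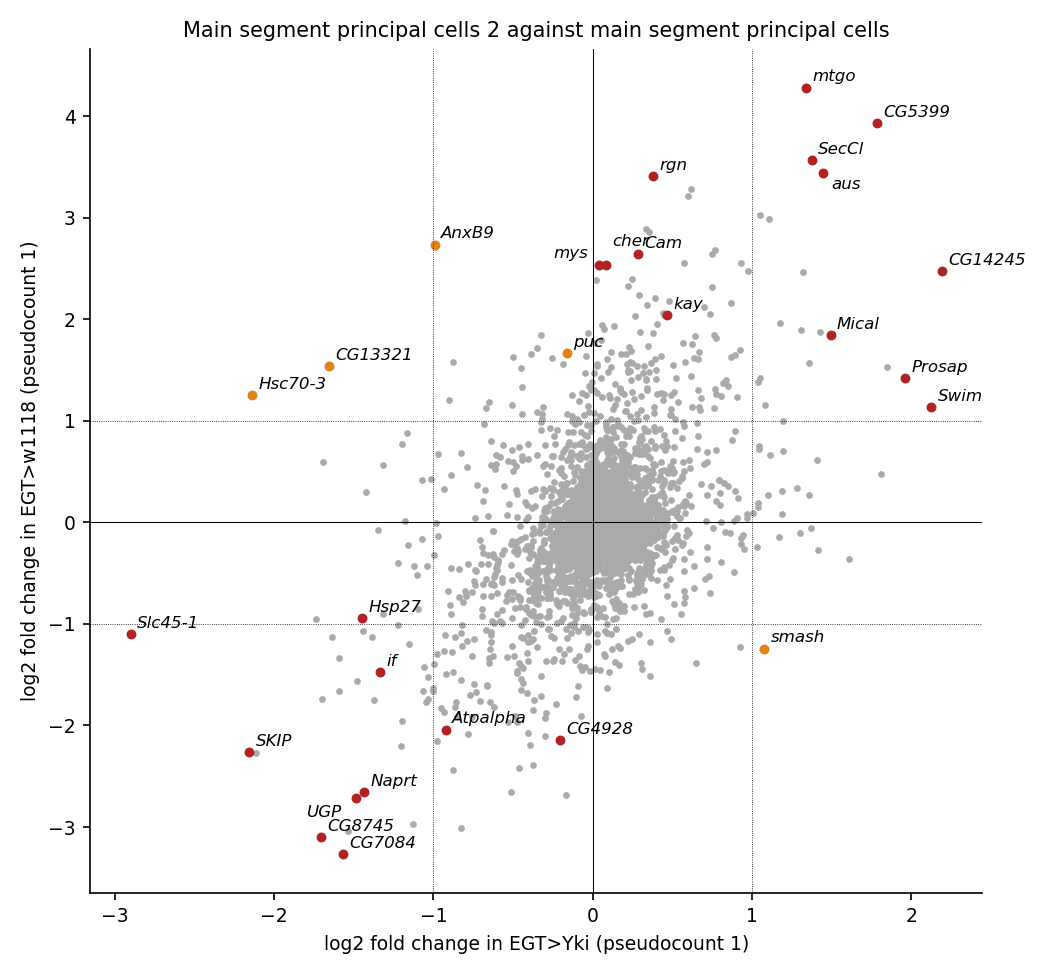
log2 fold change (pseudocount 1) of main segment PCs 2 against main segment PCs in EGT>Yki (x axis) and in EGT>w1118 (y axis), 1 point per gene measured in both. Of the 200 genes past 1 on the y axis, 158 of 198 lie above 0 on the x axis, against 62.3% of all genes compared in EGT>Yki. Hsc70-3, one of the orange points of opposite sign, lies at -2.14 on the x axis and 1.25 on the y axis.

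The genes that set the cluster apart in EGT>w1118 were followed into the other libraries, whose nuclei did not enter their choice but entered the same clustering. Of the 200 genes higher there, 158 of the 198 measured in EGT>Yki lay above 0, with a median log2 fold change of 0.29, and 19 passed 1. In PCts>W1118 187 of 197 lay above 0, with a median of 0.39, and 15 passed 1. Of the 176 lower genes, 146 of 176 lay below 0 in EGT>Yki (median -0.44, 29 past -1) and 155 of 175 in PCts>W1118 (median -0.36, 6 past -1). Genes chosen for passing 1 in a library are by that choice larger there than elsewhere, so these sizes say nothing of which library differs more. In the other direction, the 42 genes higher in EGT>Yki had a median of 0.75 in EGT>w1118, against 1.28 in EGT>Yki itself, with 34 of 41 measured above 0. The 50 lower genes had a median of -1.13 in EGT>w1118, against -1.32 in EGT>Yki, with 40 of 50 below 0. From either library, most of the chosen genes lay on the same side of 0 in the others. Over all genes compared, 62.3% lay above 0 and 37.7% below it in EGT>Yki. These shares were 41.8% and 58.2% in EGT>w1118 and 51% and 49% in PCts>W1118. The counts of chosen genes are to be read against them.

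Per nucleus, the summed level of the 200 genes had a median of 954 per 10000 UMIs in main segment PCs 2 of EGT>Yki (509 to 2464) against 743 in main segment PCs (489 to 1246). In PCts>W1118 the medians were 867 and 630. In EGT>w1118, where the genes were chosen, they were 2562 (1018 to 3962) and 590 (357 to 2200). Of the 325 nuclei of EGT>Yki 285 lay above the median of main segment PCs of that library, 49 lay above the highest such nucleus, and 0 reached the median of the cluster in EGT>w1118. For the 176 lower genes the medians were 1652 against 2079 in EGT>Yki, 630 against 2375 in EGT>w1118 and 1862 against 2192 in PCts>W1118. The nuclei of the 2 clusters of EGT>Yki therefore overlapped on this score and formed no gap.

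**Figure D5:**
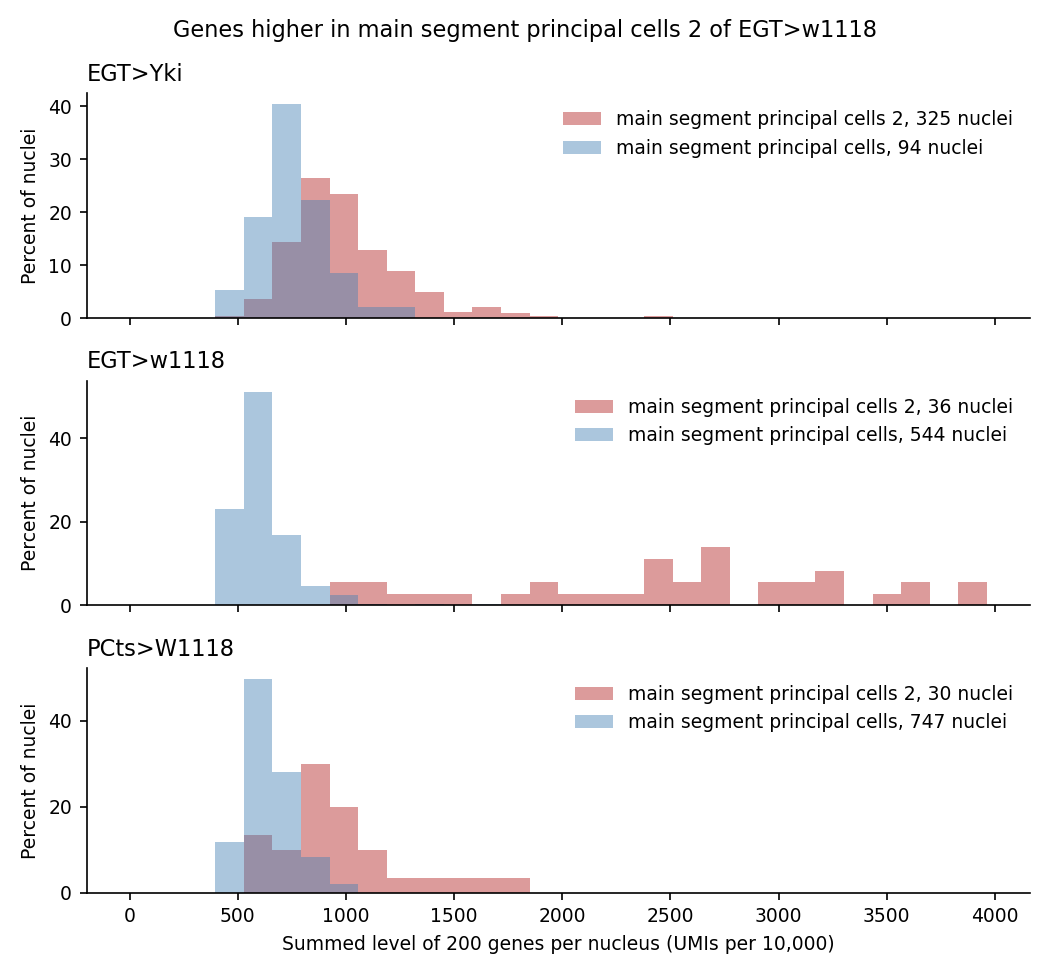
Distribution over nuclei of the summed level of the 200 genes that were higher in main segment PCs 2 of EGT>w1118, in UMIs per 10000, for both clusters of EGT>Yki, EGT>w1118 and PCts>W1118 as percent of nuclei of the cluster. The medians are 954 against 743 in EGT>Yki, 2562 against 590 in EGT>w1118 and 867 against 630 in PCts>W1118.

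The genes higher in the cluster were also read in the other cell types of the same tubules. In EGT>Yki 0 genes of main segment PCs 2 were higher by at least 1 than in every other cell type of the library, and the nearest to that was nompC, a mechanosensory channel gene, at 0.64. In EGT>w1118 60 genes were, led by lncRNA:noe (2.63), blot (2.55), Naam (2.39) and mtgo (2.37), and in PCts>W1118 CG7720 (1.30) and CG3376 (1.14) were. More cell types had enough nuclei to be compared in EGT>Yki than in the controls, among them several labelled Pvr-act. The bar was thus higher there, and the counts of the libraries cannot be compared with each other. CG14245 averaged 40.5 UMIs per 10000 in initial and transitional principal cells and 25.0 in stellate cells of EGT>Yki, both above its 24.4 in the cluster. CG5399 averaged 40.7 in lower tubule PCs and was higher still in upper ureter principal cells, and mtgo averaged 25.3 in initial and transitional principal cells. Of the 50 lower genes, 39 (78%) had their highest level among the other cell types in main segment PCs, against 7.10% of all genes compared. This is fixed in part by their choice. Of the 42 higher genes, 11 (26.2%) had it in lower segment principal cells labelled Pvr-act, against 4.33% of all genes compared. Lower tubule PCs and stellate cells held 6 each, and the others were spread over further types.

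Markers of other cell types were read in the same nuclei. Of 9 stellate cell markers, tio and Eglp1 were at 0 in main segment PCs 2 of EGT>Yki. Their summed level was 10.6 UMIs per 10000 in the cluster, 6.0 in main segment PCs and 197 in stellate cells of EGT>Yki. Without SecCl it was 5.30 against 4.55. In EGT>w1118 the sum was 36.0 against 7.83, or 3.60 against 6.0 without SecCl, and in PCts>W1118 14 against 6.93, or 6.41 against 6.01. The stellate cell identity factor tsh averaged 0.0534 UMIs per 10000 in the cluster of EGT>Yki, 0.0216 in main segment PCs and 36.8 in stellate cells. The stellate marker that was higher in the cluster of EGT>Yki by at least 1 on the log2 scale was thus SecCl. The leucokinin receptor gene Lkr averaged 0.0111 there against 0.0146 in main segment PCs. In EGT>w1118, where SecCl was highest, the other stellate markers went both ways. tsh averaged 0.410 against 0.0876 in main segment PCs, Lkr 0.235 against 0.0345 and Pvf1 1.05 against 0.346. Lkr was seen in 5.56% of nuclei of that cluster. Eglp1 averaged 0.0334 against 0.0230, from 1 UMI in the cluster. ClC-a (0.510 against 2.92), kirre (1.21 against 1.72) and TyrR (0.146 against 0.863) were lower, and tio was at 0 in the cluster. In PCts>W1118 tsh averaged 0.0744 against 0.0425 and Lkr 0 against 0.0128. The part of stellate cell RNA in the SecCl level was not tested. A tsh UMI was seen in 15 of 325, 3 of 36 and 3 of 30 nuclei of the cluster in EGT>Yki, EGT>w1118 and PCts>W1118. Leaving these nuclei out, an alternative chosen after the data were seen, gave 41 higher and 51 lower genes in EGT>Yki. Doublets were not called here, and none of the sources used here states that they were removed.

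Of 7 renal stem cell markers, which matter because esg-GAL4 is active in those cells, the summed level was 3.94 per 10000 UMIs in main segment PCs 2 against 2.89 in main segment PCs of EGT>Yki, with E(spl)mbeta-HLH at 0. In EGT>w1118 it was 7.04 against 1.95. Sums for visceral muscle markers were 2.25 against 2.06 in EGT>Yki and those for enterocyte markers 0.0764 against 0. Their part in the differences above was not tested.

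The share of nuclei with at least 1 SecCl UMI was compared after thinning every nucleus to 2000 UMIs. It was 45.9% (exact interval 40.2 to 51.7%) in main segment PCs 2 against 18.1% (10.9 to 27.4%) in main segment PCs of EGT>Yki, and 77.8% against 56.4% before thinning, with 22 of 325 nuclei of the cluster left out for too few UMIs. mtgo was seen in 80.2% against 51.1% of thinned nuclei and CG14245 in 85.1% against 46.8%. List was seen in 43.2% against 58.5% and Uro in 41.6% against 72.3%. The order of the 2 clusters at equal depth was therefore that of their mean levels for these genes. In lower tubule PCs of EGT>Yki, which are not known for this channel, SecCl was seen in 24.4% of thinned nuclei (17.3 to 32.7%). In stellate cells of that library the share was 98.5%. In EGT>Yki the share in main segment PCs was thus not above that in lower tubule PCs, and that in main segment PCs 2 was. The EGT>w1118 shares were 97.1% in main segment PCs 2 and 24.1% (20.5 to 27.9%) in main segment PCs. Lower tubule PCs of EGT>w1118 had 8.80% (6.24 to 11.98%), so both main segment clusters lay above them there. The source of these SecCl UMIs was not tested.

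Within the cluster the nuclei of EGT>Yki were split into 3 equal classes of depth. CG5399 averaged 36.9 UMIs per 10000 in the lowest class (712 to 9237 UMIs), 20.8 in the middle (9393 to 14623) and 20.8 in the highest (14638 to 42867). CG14245 averaged 33.0, 17.8 and 22.5, and SecCl 5.96, 4.71 and 5.37. mtgo averaged 12.3, 13.0 and 15.9, puc 16.5, 17.6 and 18.1, and Slc45-1 0.933, 2.68 and 2.11. CG5399 and CG14245 were thus highest among the shallowest nuclei, and puc, SecCl and mtgo differed less between the classes.

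The tumor was then compared with its control inside the cluster, EGT>Yki against EGT>w1118, on 325 and 36 nuclei. Of 5682 genes 131 were higher by at least 1 on the log2 scale (2.31%) and 148 were lower (2.6%), against 21 higher (0.378%) and 15 lower (0.27%) of 5552 genes in main segment PCs. The cluster was assigned over all libraries together, so this contrast too depends on which nuclei received the label. The other control gave fewer: of 5651 genes 63 were higher (1.11%) and 81 lower (1.43%) in main segment PCs 2 of EGT>Yki than in those of PCts>W1118. The 2 controls differed as much from each other inside the cluster, with 148 genes higher (2.61%) and 158 lower (2.79%) of 5664 in EGT>w1118 than in PCts>W1118, while in main segment PCs they differed in 22 (0.427%) and 27 (0.523%) of 5158. These contrasts share libraries and are given side by side only. The driver and the library cannot be told apart in the contrasts with PCts>W1118.

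nompC was among the 3 highest genes of EGT>Yki against either control. It held 2577 UMIs in main segment PCs 2 of EGT>Yki (5.89 UMIs per 10000), 0 of 463073 UMIs in those of EGT>w1118 and 0.026 UMIs per 10000 in those of PCts>W1118. Set against the limit that a count of 0 over the EGT>w1118 nuclei allows (3 UMIs), the pooled level was at least 97.6-fold higher in EGT>Yki. It averaged 3.05 in main segment PCs of EGT>Yki against 0.0281 in those of EGT>w1118, so the gene was high in both main segment clusters of the tumor library. It was not limited to them, with 3.42 in lower tubule principal cells labelled Pvr-act of EGT>Yki. CG12780 averaged 26.1 UMIs per 10000 in the cluster of EGT>Yki, 2.32 in EGT>w1118 and 3.06 in PCts>W1118, and Ndae1 averaged 20.1, 3.67 and 3.02. nompC, CG12780 and Ndae1 were thus higher in the cluster of EGT>Yki than in that of either control. Among the other cell types of EGT>Yki, CG12780 was highest in principal cells-like nuclei, at 18.7.

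Other genes at the top of the contrast with EGT>w1118 were high in PCts>W1118 too. CG7720 averaged 27.3 per 10000 UMIs in main segment PCs 2 of EGT>Yki and 0.0871 in those of EGT>w1118, a log2 fold change of 4.70 that rests on 8 CG7720 UMIs in EGT>w1118, but 30.2 in those of PCts>W1118. sug, a sugar-responsive transcription factor gene, averaged 13.1 in EGT>Yki, 1.60 in EGT>w1118 and 8.48 in PCts>W1118. For these genes the EGT>w1118 cluster was the low one of the 3.

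The lower genes repeated this pattern from the other side. Cam averaged 3.57 per 10000 UMIs in main segment PCs 2 of EGT>Yki, 26 in those of EGT>w1118 and 4.75 in those of PCts>W1118. mys averaged 3.49, 19.3 and 3.57, and mtgo 13.7, 84.1 and 16.5. These genes had close levels in EGT>Yki and PCts>W1118, with the 36 nuclei of EGT>w1118 high. Pvr, the receptor tyrosine kinase gene that the principal cell driver experiments target, was of the same kind, at 8.79 in EGT>Yki, 22.1 in EGT>w1118 and 8.74 in PCts>W1118. Other genes were low in EGT>Yki against both controls. CG8620 averaged 26 in EGT>Yki, 113 in EGT>w1118 and 99.4 in PCts>W1118, and SKIP 0.912, 1.76 and 5.56.

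Since the cluster is the larger part of the main segment in EGT>Yki and a small part in EGT>w1118, the clusters of each library were also pooled, an alternative chosen after the data were seen. In that contrast 40 of 5530 genes were higher (0.723%) and 60 were lower (1.08%) in EGT>Yki. Against main segment PCs of EGT>w1118, the main segment PCs 2 of EGT>Yki were higher by at least 1 in 74 of 5506 genes (1.34%) and lower in 100 (1.82%).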

How the data were processed

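Nuclei of Malpighian tubules from 5 genotypes, 1 library each, were profiled by droplet single-nucleus RNA-seq. Per the labels, reads were processed with Cell Ranger 7.0.0 on the BDGP6 genome. The authors clustered the nuclei in Seurat with Harmony integration, and the deposited files hold natural log values of 1 plus UMIs per 10000 and the cell type of each nucleus. All values of each nucleus were whole multiples of its smallest value within 1e-06, so UMI counts were recovered for 100% of nuclei. The files held more nuclei of the EGT libraries than the study states for them, and all were used. Of 16495 gene identifiers 16447 were matched to symbols and 48 were not used by name.

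Means of UMIs per 10000, log2 ratios (pseudocount 1), exact binomial and Poisson-based 95% intervals and shares after thinning were computed in Python 3.11.15 with numpy 2.4.6, scipy 1.17.1 and pandas 2.3.3. The code was tested on simulated data. With 1 library per genotype no test was run. Named genes were List, puc, kay, the fixed lists, and the 15 highest and 15 lowest of each comparison. Members and lists were chosen with earlier results of these data known. Alternatives were other pseudocounts, pooling, centring, thinning and left-out nuclei. No sequences are shown.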

Additional observations from a re-analysis of the deposited data

Results flagged for a closer look

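In these results an effect ran one way in one library or cluster and the opposite way in another, by at least 1 on the log2 scale each. With 1 library per genotype the difference between the effects was not tested. In main segment PCs 2 against main segment PCs, the log2 fold change of smash was 1.08 in EGT>Yki and -1.24 in EGT>w1118, that of CG13321 was -1.65 in EGT>Yki and 1.54 in EGT>w1118, and that of the chaperone gene Hsc70-3 was -2.14 in EGT>Yki and 1.25 in EGT>w1118. In EGT>Yki against EGT>w1118, the log2 fold change of the annexin gene AnxB9 was -2.28 in main segment PCs 2 and 1.45 in main segment PCs. That of CG5399 was -1.06 in main segment PCs 2 and 1.09 in main segment PCs, and that of CG13321 was -2.03 and 1.17 in the same order of clusters. Hsc70-3 had -2.24 in main segment PCs 2 and 1.14 in main segment PCs, and Trxr1, the thioredoxin reductase gene, had -1.06 and 1.05. For each of these genes the values of EGT>w1118 rest on 36 nuclei of main segment PCs 2.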

How the results depend on the processing

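No paired analysis was possible because each genotype had 1 library, and for the same reason no replicate could be left out. The share of main segment PCs 2 in EGT>Yki was 11.8% when the 25% of nuclei poorest in genes were left out and 7.92% without the 5% with the most genes, against 8.93% with all nuclei. Counts of genes past the fold depended most on the pseudocount. With 0.1 in place of 1, 237 genes were higher and 158 lower in EGT>Yki, 513 and 596 in EGT>w1118, 223 and 147 in PCts>W1118, and 603 and 416 in EGT>Yki against EGT>w1118 within the cluster. Thinning to 500 UMIs gave 101 higher and 63 lower in PCts>W1118. Of alternatives chosen after the data were seen, the genotype contrast of the cluster gave 63 higher and 81 lower against PCts>W1118, 74 higher against main segment PCs of EGT>w1118 and 40 higher and 60 lower with both clusters together, while the cluster contrast of EGT>Yki gave 74 and 100 against main segment PCs of EGT>w1118. With those poorest 25% left out, 95.1% of EGT>Yki nuclei were nearest to their own cluster and the summed level of the segment genes was 121 UMIs per 10000. Of 5318 alternatives of 925 named gene values, 4471 moved by less than their counting interval, 846 by more and 1 reversed: the integrin gene scb in EGT>w1118, at -0.052 after thinning to 500 UMIs against 1.01. Only values of at least 1 in either direction could count as reversed. A change of sign in a smaller value was counted by its size alone, so the number of named values that changed direction is not given. The cause was not tested. At most 36 nuclei of the cluster in each control library limit its low genes.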
